A study of Mus musculus with 2 samples.

Results

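The genes of cholesterol and fatty acid synthesis were followed in mouse morulae, the compacted embryos that precede the blastocyst. Their 35 members were taken from a list of gene symbols, and all 35 are among the 12836 genes of the deposited expression table. One library, dsNat10, came from morulae of the ICR stock that had received double-stranded RNA targeting Nat10, the enzyme that writes N4-acetylcytidine on RNA. The other, dsGFP, is the negative control: ICR morulae that had received double-stranded RNA targeting GFP, a gene mice lack. Embryos were pooled, 50 morulae are named without a statement that each library had that number, and the stage at injection is not given in the labels. The study concerns the acetylation of Nop2 mRNA and the passage from morula to blastocyst. Each group held 1 library, so every difference below compares 2 libraries and has no replicate check. In pooled embryos, fewer cells of a type and less RNA per cell cannot be told apart.

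Cells build cholesterol from acetyl-CoA. The mevalonate arm makes isoprenoid units and farnesyl diphosphate, and the enzymes from squalene onward close and trim the sterol ring. Fatty acids share the acetyl-CoA source and are built by acetyl-CoA carboxylase and fatty acid synthase, then lengthened by Elovl enzymes, given double bonds by desaturases, and activated by acyl-CoA ligases. Both pathways are controlled by SREBP transcription factors, which Scap carries to the Golgi for cleavage and Insig proteins hold in the endoplasmic reticulum when sterols are plentiful.

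Only 3 members were called different between the libraries, with 1 higher and 2 lower in dsNat10 of the 34 that could be tested. A gene was tested when its mean over both libraries was 5 reads per 1000000 (CPM) or more, and called when its log2 ratio of CPM plus 1 was at least 1 in size and the 95% counting interval of the CPM ratio excluded equality. Across all 8738 tested genes the same rule called 30.5%, made up of 15.2% higher and 15.3% lower. The share of members called was 8.82%. The median log2 ratio was -0.00029 over the 34 tested members and 0.01 over all tested genes. Hmgcs1, which encodes the cytosolic synthase of the mevalonate arm that makes HMG-CoA, and Hsd17b7, a ketoreductase of sterol demethylation, were the lower members. Acsl3, an acyl-CoA ligase of the endoplasmic reticulum and lipid droplets, was the higher one.

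The promoter stretches of these 3 genes are shown because they are the members that met the call rule. They come from RefSeq windows of GRCm38.p6 that run from 250 bases before to 50 after a gene's start, cut back to the bases upstream of every annotated start of the gene. Hmgcs1 is read from chr13:119690101-119690350 on the plus strand, Hsd17b7 from chr1:169969243-169969455 on the minus strand, and Acsl3 from chr1:78657575-78657824 on the plus strand. Capitals mark the core of the sterol regulatory element (TCACNCCAC, a site SREBP binds) and the NF-Y box (CCAAT), each on either strand.
Hmgcs1: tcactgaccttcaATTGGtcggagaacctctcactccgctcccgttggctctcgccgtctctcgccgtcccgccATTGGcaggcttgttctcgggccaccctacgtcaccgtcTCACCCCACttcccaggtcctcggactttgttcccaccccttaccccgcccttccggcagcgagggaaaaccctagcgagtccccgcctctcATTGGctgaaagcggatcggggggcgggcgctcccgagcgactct
Hsd17b7: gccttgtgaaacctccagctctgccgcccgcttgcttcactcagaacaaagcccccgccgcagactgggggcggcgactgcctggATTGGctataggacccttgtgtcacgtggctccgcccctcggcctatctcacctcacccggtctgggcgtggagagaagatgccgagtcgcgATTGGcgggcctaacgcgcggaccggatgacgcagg
Acsl3: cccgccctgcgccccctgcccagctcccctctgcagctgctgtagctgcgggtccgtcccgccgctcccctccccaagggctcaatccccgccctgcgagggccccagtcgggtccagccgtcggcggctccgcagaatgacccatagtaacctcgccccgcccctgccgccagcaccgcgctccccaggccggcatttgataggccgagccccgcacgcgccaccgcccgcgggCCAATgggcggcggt
The stretch of Hmgcs1 held 1 sterol element core and 3 NF-Y boxes, that of Hsd17b7 held 2 NF-Y boxes, and that of Acsl3 held 1 NF-Y box, with no overlap between them.

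Among the 29 members with a window in the RefSeq table, Hmgcs1 alone had these letters of the sterol element core. Of the 7116 tested genes with a window 1.25% had them, and of all 27025 genes with a window 1.44%. A gene was counted when any of its windows had a match. The NF-Y box was present in 23 of the 29 (79.3%), against 44.0% of tested genes and 41.1% of all genes with a window. The Sp1 box (GGGCGG, on either strand) was present in 24 of the 29 (82.8%), against 69.6% of tested genes and 38.2% of all genes with a window. Windows for Fdps, Fdft1, Sqle, Scd1, Scd2 and Fads1 are not in the table. A match of letters describes the sequence and was not measured as binding. Only these exact letters were searched, so a window without a match can still hold a site of another form.

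**Figure D1:**
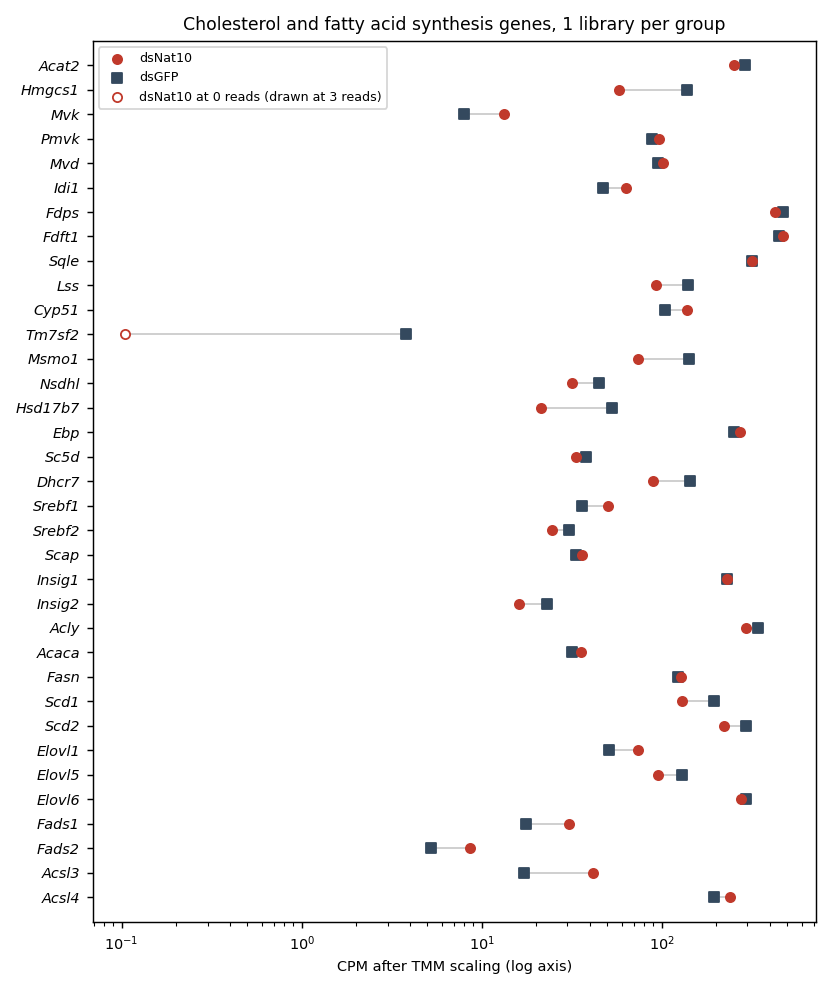
Levels of the 35 genes in dsNat10 (circles) and dsGFP (squares) as CPM on a log axis, in pathway order, with 1 library per group. Most pairs lie close together, and Tm7sf2, with 0 reads in dsNat10 and 110 in dsGFP, is drawn at 3 reads in dsNat10.

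The 2 libraries held 28303119 reads (dsNat10) and 29139232 reads (dsGFP). Nat10 itself had 37 reads in dsNat10, against 886 in dsGFP, and was 23.7-fold lower (95% counting interval 17.1 to 33.9). Of 7 trophectoderm markers, all in the table, 1 was higher and 3 were lower in dsNat10, with summed levels of 1858 TPM in dsNat10 and 2147 TPM in dsGFP. Of 7 markers of the inner cell mass 6 are in the table, 0 higher and 2 lower, at 810 TPM in dsNat10 and 1123 TPM in dsGFP. Both sums join moves in opposite directions. Krt8 had 391 TPM in dsNat10 and 787 TPM in dsGFP, while Gata3, not called, had 682 and 493 TPM. Nanog, with fractional counts, had 156 TPM in dsNat10 and 469 TPM in dsGFP, while Zfp42, not called, had 387 and 270 TPM. Markers of other cell types had lower summed levels. Of 9 cumulus cell markers 3 are in the table, with summed levels of 23.9 TPM in dsNat10 and 27.1 TPM in dsGFP, nearly all of it Amhr2, while Amh and Inhba had 0 reads in dsNat10 and 5 and 2 in dsGFP. Of 8 blood and fibroblast markers 4 are in the table, at 75.2 TPM in dsNat10 and 82.6 TPM in dsGFP, from Cd68, Pecam1 and Hba-a1, while Col1a1 had 0 reads in dsNat10 and 9 in dsGFP. Hba-a1, a haemoglobin gene, had 11.3 TPM in dsNat10 and 25.3 TPM in dsGFP. Of 8 adipocyte and hepatocyte markers, cells rich in these pathways, Apoa1 alone is in the table, with 0 reads in dsNat10 and 487 in dsGFP. Of 7 oocyte markers 3 are in the table, at 44.9 TPM in dsNat10 and 6.52 TPM in dsGFP, with Zp3 and H1f8 higher and Gdf9 at 1 read in dsNat10 and 54 in dsGFP. The part of these markers in the results below was not tested.

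Along the mevalonate arm, Hmgcs1 alone of 7 enzymes was called. It had 1652 reads in dsNat10, against 3975 in dsGFP, and was 2.38-fold lower (95% counting interval 2.25 to 2.52). Of the 2420 tested genes with a mean of 50 to 200 CPM, 6.94% had a log2 ratio at least as large in size as its value of -1.24.

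The remaining enzymes of the arm had ratios between 0.873 and 1.68. Mvk, the mevalonate kinase, was counted 381 times in dsNat10 and 229 times in dsGFP, a ratio of 1.68 (1.42 to 1.99), the highest of the arm. Low abundance goes with this value, since log2 ratios as large were found for 66.9% of tested genes whose mean was 5 to 20 CPM. Pmvk and Mvd, which add the next phosphate and decarboxylate the product, had ratios of 1.09 (1.03 to 1.15) and 1.06 (1.01 to 1.12). Idi1, the isomerase of isopentenyl diphosphate, had 1807 reads in dsNat10 and 1360 in dsGFP (ratio 1.34, 1.25 to 1.44). Fdps, the farnesyl diphosphate synthase, was the most abundant member per length, at 593 TPM in dsNat10 and 634 TPM in dsGFP. Its read ratio was 0.899 (0.877 to 0.921). Acat2, the cytosolic thiolase that opens the arm, had 7232 reads in dsNat10 and 8371 in dsGFP (0.873, 0.846 to 0.901). Acat2 and Idi1 have fractional estimated counts, so their reads could be shared with near-identical or overlapping genes and both values are uncertain.

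From squalene to cholesterol, the abundant early enzymes had ratios near 1 and several later ones had lower levels in dsNat10. Fdft1, which makes squalene, had 13435 reads in dsNat10 and 12937 in dsGFP (ratio 1.05, 1.02 to 1.07). Sqle, the squalene epoxidase and a controlled step of the pathway, had 9102 and 9173 reads, a ratio of 1.0 (0.974 to 1.03) whose side of 1 depended on the scaling. Lss, which closes the ring to lanosterol, had 2659 reads in dsNat10 and 4049 in dsGFP (0.663, 0.632 to 0.697). Cyp51, the demethylase of carbon 14, was on the other side, with 3974 and 3003 reads (1.34, 1.27 to 1.40). Neither reached the call rule.

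The enzymes that remove the methyl groups at carbon 4 of the sterol all had ratios below 1. Msmo1, the oxidase, had 2110 reads in dsNat10, against 4100 in dsGFP, a ratio of 0.520 (0.493 to 0.548) and a log2 ratio of -0.93, just short of the limit. Nsdhl, the dehydrogenase, had 911 reads in dsNat10 and 1298 in dsGFP (0.709, 0.651 to 0.772). Hsd17b7 had 614 reads in dsNat10, against 1523 in dsGFP, and was 2.46-fold lower (2.23 to 2.70). Erg28, a scaffold of this complex that is not a member, had 1271 reads in dsNat10 and 1811 in dsGFP (0.709, 0.659 to 0.762), with fractional counts. These 4 genes were set side by side after their values were seen. Ratios of this size were common at their abundance. A log2 ratio as large as that of Hsd17b7 was found for 21.9% of tested genes averaging 20 to 50 CPM, and as large as that of Msmo1 for 14.5% of those with 50 to 200 CPM.

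The remaining enzymes of the sterol ring differed among themselves. Ebp, the sterol isomerase, had 7762 reads in dsNat10 and 7281 in dsGFP (ratio 1.08, 1.04 to 1.11). Dhcr7, the reductase that makes cholesterol from 7-dehydrocholesterol, had 2547 reads in dsNat10, against 4149 in dsGFP (0.620, 0.590 to 0.652). Tm7sf2, a sterol reductase of carbon 14, had 0 reads in dsNat10 and 110 in dsGFP and was too low to be tested. With dsNat10 set to the floor of 3 reads it was at least 36.3-fold lower, while the 95% counting interval of its ratio allows a smaller difference, with an upper end of 0.0345. Of the 820 genes within 1.25-fold of its dsGFP reads, 44.0% had 0 reads in dsNat10.

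Sc5d, the desaturase of carbon 5, gave different answers by reads and per length. It was counted 951 times in dsNat10 and 1098 times in dsGFP, a CPM ratio of 0.875 (0.801 to 0.955) and a log2 ratio of -0.19. Its deposited level per length was 10.8 TPM in dsNat10, against 25.6 TPM in dsGFP, a log2 ratio of TPM plus 1 of -1.18, past the size limit. By TPM 29.2% of tested genes passed that limit, made up in part of 14.0% on the lower side. The transcript length implied by the deposited estimated count and FPKM was 4565 bases in dsNat10 and 2107 bases in dsGFP, 2.17-fold apart. GENCODE M21 lists protein-coding transcripts of Sc5d with 4787, 1677 and 703 bases. Implied lengths 2-fold or more apart were found for 24 of 7848 tested genes with over 1 TPM in both libraries (0.306%). Among the 34 members with reads in both libraries, 30 had implied lengths within 1.05-fold. The other 4 were Sc5d, Lss (3811 bases in dsNat10 and 3248 in dsGFP), Hsd17b7 (4132 and 3810 bases) and Elovl5 (2252 and 2499 bases).

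**Figure D2:**
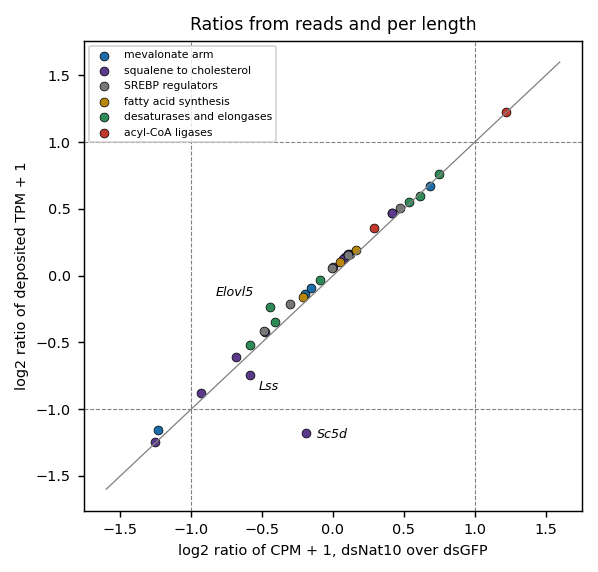
Log2 ratio of dsNat10 over dsGFP for the 34 tested genes from CPM (x axis) and from the deposited TPM (y axis), each plus 1. The line marks equality, and Sc5d lies far from it, at -0.19 from CPM and -1.18 from TPM.

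The SREBP regulators were not called in either direction, and all 5 lay within 1.5-fold. Srebf1, the SREBP gene best known for fatty acid genes, had 1447 reads in dsNat10 and 1047 in dsGFP (ratio 1.40, 1.29 to 1.51). Srebf2, better known for cholesterol genes, had 705 and 886 reads (0.804, 0.727 to 0.889). Srebf1 thus made up 68.6% of the TPM of the pair in dsNat10 and 56.0% in dsGFP. The sterol sensor Scap had 1035 reads in dsNat10 and 970 in dsGFP (1.08, 0.987 to 1.18). Insig1 had 6566 and 6653 reads (0.997, 0.964 to 1.03), and its direction depended on the scaling. Insig2 had 462 reads in dsNat10 and 664 in dsGFP (0.703, 0.623 to 0.793). Insig1 was the main Insig transcript in both libraries, with 93.3% of the TPM of the pair in dsNat10 and 90.8% in dsGFP.

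The enzymes that build the fatty acid chain were nearly level between the libraries. Acly, which supplies cytosolic acetyl-CoA from citrate, had 8435 reads in dsNat10 and 9892 in dsGFP (ratio 0.862, 0.837 to 0.887). Acaca, the acetyl-CoA carboxylase, had 1014 and 914 reads (1.12, 1.02 to 1.23). Fasn, the fatty acid synthase, had 3650 and 3569 reads (1.03, 0.986 to 1.08). All 3 stayed within 1.5-fold. Per length, Acly was the most abundant of them at 103 TPM in dsNat10 and 115 TPM in dsGFP, and Acaca was the lowest at 5.92 and 5.07 TPM.

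Of the 4 desaturases among the members, Scd1 and Scd2 had ratios below 1 and Fads1 and Fads2 above 1, and none was called. Scd3, a further stearoyl-CoA desaturase that is not a member, was called higher. Scd1 had 3705 reads in dsNat10 and 5642 in dsGFP (ratio 0.663, 0.636 to 0.692), and Scd2 had 6335 and 8527 reads (0.751, 0.726 to 0.775). These neighbours on chromosome 19 (Scd1 at 44394450 to 44407709, Scd2 at 44293676 to 44306864) make monounsaturated fatty acids. Both have fractional counts, as does Scd3, so reads could be shared among them and the values are uncertain. Fads1 and Fads2, which make polyunsaturated fatty acids and also lie on chromosome 19, had 869 and 245 reads in dsNat10, against 511 and 152 in dsGFP. Their ratios were 1.72 (1.54 to 1.92) for Fads1 and 1.63 (1.32 to 2.01) for Fads2. Low abundance again goes with these values, as 43.5% and 69.9% of tested genes in their bands of mean CPM had log2 ratios as large. Fads1 held 74.7% of the TPM of this pair in dsNat10 and 73.7% in dsGFP.

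The member elongases Elovl1, Elovl5 and Elovl6 were within 1.5-fold, as were the related genes Elovl3 and Elovl7. Elovl3 had 347 reads in dsNat10 and 483 in dsGFP (ratio 0.726, 0.630 to 0.835). Elovl7 had 725 and 750 reads (0.977, 0.881 to 1.08), with fractional counts. Elovl4 had 286 reads in dsNat10 and 0 in dsGFP, and Elovl2, too low to be tested, had 0 and 147. Elovl1, an elongase of very long saturated chains, had 2118 reads in dsNat10 and 1466 in dsGFP (ratio 1.46, 1.36 to 1.56). Elovl5, which acts on polyunsaturated chains, had 2724 and 3755 reads (0.733, 0.697 to 0.770). Elovl6, which lengthens palmitate, had 7872 and 8476 reads (0.938, 0.910 to 0.968). Of the summed TPM of these 3 elongases, Elovl1 held 33.6% in dsNat10 and 23.8% in dsGFP, and Elovl5 held 31.2% in dsNat10 and 38.5% in dsGFP.

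Both member ligases, which activate long fatty acids, had ratios above 1. Related ligases differed in direction. Acsl6 and Acsf2 were called lower, and Acsl1 had 0 reads in dsNat10 and 96 in dsGFP. Acsf3 had a ratio above 1, with 285 reads in dsNat10 and 194 in dsGFP, and was not called. Acsl3 had 1182 reads in dsNat10, against 496 in dsGFP, and was 2.41-fold higher (2.17 to 2.68). Its counts are fractional and uncertain, and 23.2% of tested genes with a mean of 20 to 50 CPM had a log2 ratio as large. Acsl4, which prefers arachidonic acid, had 6857 reads in dsNat10 and 5670 in dsGFP (1.22, 1.18 to 1.27). Acsl3 held 19.6% of the TPM of the pair in dsNat10 and 11% in dsGFP, so Acsl4 was the main transcript in both libraries.

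**Figure D3:**
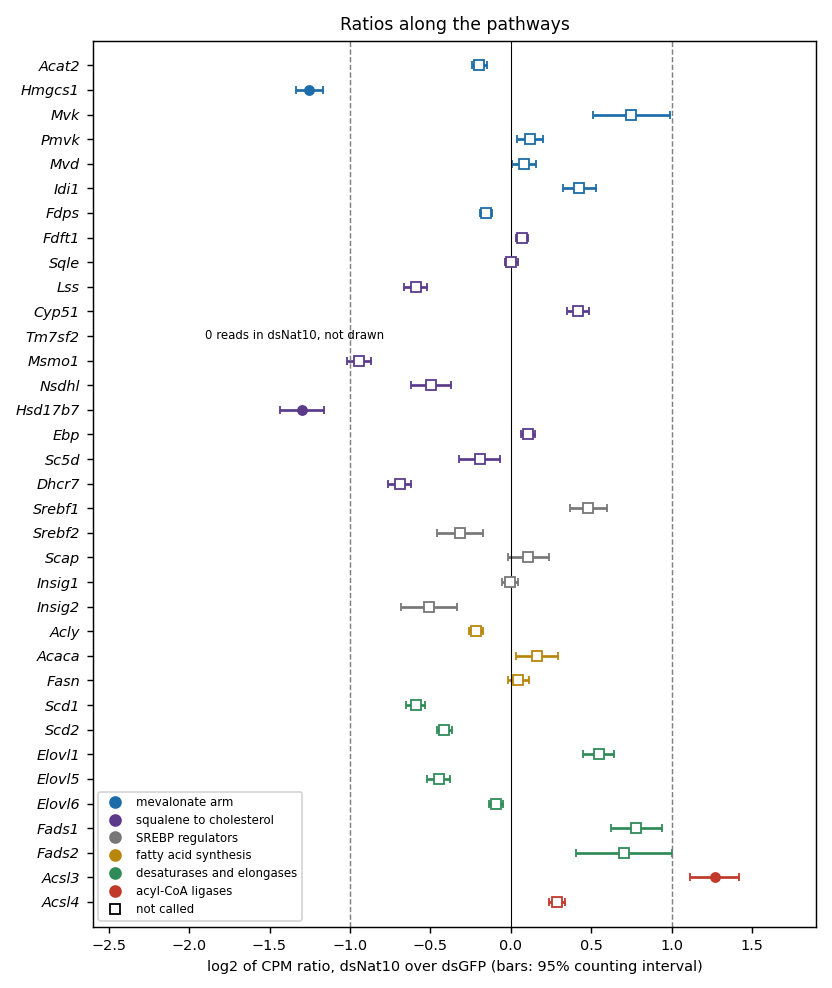
Log2 of the CPM ratio, dsNat10 over dsGFP, for each gene in pathway order with 95% counting intervals. Filled circles are the 3 called genes, open squares the others, and dashed lines mark a log2 ratio of 1 in either direction.

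Called genes were fewer among members than among all tested genes, and abundance goes with this. The median mean level was 103 CPM for tested members and 35.7 CPM for all tested genes, and the share of genes called fell as the mean level rose. With a mean of 5 to 20 CPM the rule called 54.7% of tested genes and 0 of 3 members. With 20 to 50 CPM it called 31.6% of genes and 2 of 9 members, and with 50 to 200 CPM 12.3% of genes and 1 of 12 members. At 200 CPM or more it called 3.02% of genes and 0 of 10 members. Taken from 20 CPM upward it called 17.9% of genes, and from 50 CPM upward 9.33%, against 3 of 31 and 1 of 22 members. With a limit of 1.5-fold in place of 2-fold, 4 members were higher and 6 lower of 34, against 25.1% of all tested genes higher and 23.8% lower, or 48.9% called. The added members were Mvk, Fads1 and Fads2 on the higher side and Msmo1, Dhcr7, Lss and Scd1 on the lower side. Nearest to the main limit on the log2 scale were Msmo1 (-0.93) and Fads1 (0.75) outside it and Acsl3 (1.22), Hmgcs1 (-1.24) and Hsd17b7 (-1.26) inside it.

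The cholesterol and fatty acid enzymes had medians on either side of 0, by small amounts. Over the 17 tested cholesterol enzymes the median log2 ratio was -0.15, with 2 lower and 0 higher. Over the 12 fatty acid enzymes it was 0.10, with 0 lower and 1 higher. The difference between these groups has no test with 1 library each. Summed over all members, the level was 2775 TPM in dsNat10 and 2905 TPM in dsGFP.

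**Figure D4:**
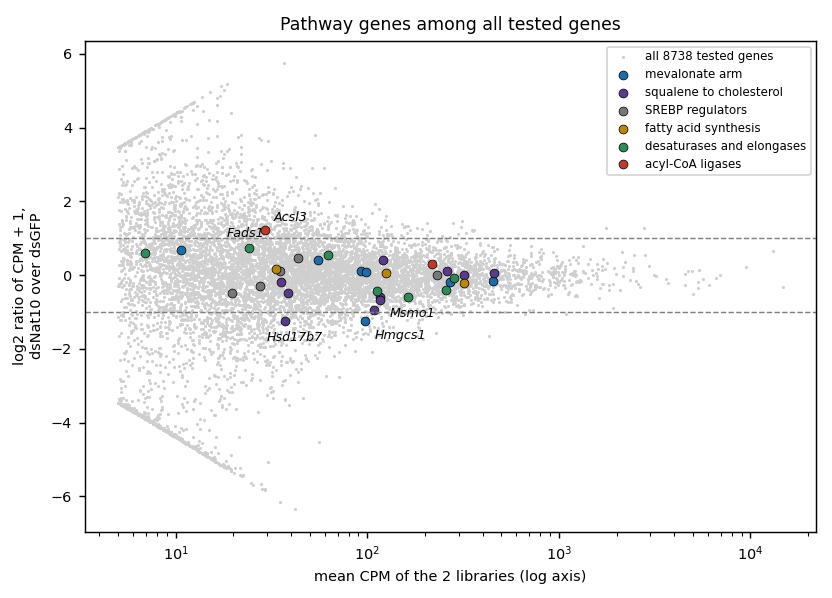
Log2 ratio of CPM plus 1 (dsNat10 over dsGFP) against mean CPM for all 8738 tested genes (grey) and the 34 tested pathway genes (coloured by role). The grey cloud narrows as the level rises, and Acsl3, Hmgcs1 and Hsd17b7 alone among the coloured points lie beyond the dashed limits.

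Genes around these pathways were taken from 6 lists of related lipid genes, of which 127 are in the table and 108 were tested. Of these, 20 were higher and 17 lower in dsNat10, or 34.3% called, near the 30.5% of all tested genes (15.2% higher and 15.3% lower) against which each list's counts are to be read. In dsNat10 17 of the 127 had 0 reads, and in dsGFP 1 had. Zeros were more common in dsNat10 over all genes too. With the 12836 genes ranked by TPM, those at 0 began at rank 10164 in dsNat10 and rank 12366 in dsGFP. The list with the most calls in 1 direction was cholesterol uptake, transport and storage, where 8 of 14 tested genes were higher and 0 lower. Its median log2 ratio was 1.13, and 0.74 over all 17 in the table with genes at 0 set to 3 reads. Nr1h3, the oxysterol receptor LXR alpha, had 1150 reads in dsNat10, against 232 in dsGFP, and was 5.01-fold higher (4.35 to 5.79). Abca1 and Abcg1, which export cholesterol and are known targets of the receptor, were 3.28-fold (2.89 to 3.72) and 4.13-fold (3.55 to 4.83) higher, with 1051 and 863 reads in dsNat10 against 324 and 211 in dsGFP. Mylip, another known target in the list, had 0 reads in dsNat10 and 109 in dsGFP and was too low to be tested, and the known target Scd1 had its ratio of 0.663. The paralogue Nr1h2 had 8178 and 7973 reads, a ratio of 1.04 (1.0 to 1.07).

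Genes for lipoprotein uptake and sterol handling completed that list. The lipoprotein receptors Lrp8 (6.82-fold, 5.24 to 9.01) and Scarb1 (2.24-fold, 2.06 to 2.44) were higher in dsNat10. Soat1, which esterifies cholesterol for storage, was 2.75-fold higher (2.51 to 3.01) with fractional counts, and the sterol carriers Osbp and Osbpl9 were 2.77-fold (2.44 to 3.15) and 2.19-fold (2.09 to 2.30) higher, the second with fractional counts. The most abundant gene of the list, Npc2, a lysosomal cholesterol carrier, had 13462 and 16304 reads. Of the 8 higher genes, Osbpl9 alone had a mean above 50 CPM, so the others lie where the rule also called 31.6% or more of all tested genes.

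Other genes of sterol synthesis and SREBP processing were lower or not called. Of 10 tested, 0 were higher and 2 lower, among them Rnf139, a ubiquitin ligase of sterol control with 0 reads in dsNat10 and 874 in dsGFP (at least 288-fold lower, with fractional counts). The proteases that cleave SREBP, Mbtps1 and Mbtps2, had ratios of 0.655 (0.606 to 0.708) and 0.612 (0.538 to 0.694). Ufd1, the most abundant by CPM, had 8659 reads in dsNat10 and 7126 in dsGFP, with fractional counts. Tmem97, next in abundance, had 5415 and 9818 reads (0.557, 0.539 to 0.576). In the isoprenoid branch, 1 of 10 was higher and 2 lower. Fnta, a shared subunit of the protein prenyltransferases, was 2.22-fold higher (2.01 to 2.46). Ggps1, which makes geranylgeranyl diphosphate, was 2.58-fold lower (2.24 to 2.98) with fractional counts, and Pggt1b, a subunit of the geranylgeranyl transferase, had 0 reads in dsNat10 and 703 in dsGFP (at least 232-fold lower). The most abundant gene of the branch, the protease Zmpste24, had 30645 and 36716 reads (0.843, 0.831 to 0.856).

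Among the other genes of fatty acid synthesis, elongation and activation, 5 of 19 tested were higher and 4 lower. Partners of the Elovl enzymes in chain elongation were among the lower genes. Hsd17b12, the ketoreductase of the elongation cycle, had 390 reads in dsNat10, against 2197 in dsGFP, and was 5.58-fold lower (5.0 to 6.23). Hacd3, a dehydratase of the cycle, had 156 reads in dsNat10, against 1662 in dsGFP, and was 10.5-fold lower (8.94 to 12.5). Hacd2, a second dehydratase, had 565 and 1107 reads (ratio 0.516, 0.465 to 0.571), and Tecr, the final reductase and the most abundant gene of the list per length, had 7517 and 8044 reads (0.944, 0.915 to 0.974). The remaining lower genes were Acsl6 (3.14-fold, 2.57 to 3.87) and Acsf2 (2.48-fold, 2.10 to 2.93). Slc25a1, the carrier that brings citrate out of mitochondria for Acly, had 1004 reads in dsNat10, against 318 in dsGFP, and was 3.19-fold higher (2.81 to 3.63). Mecr was 2.17-fold higher (2.01 to 2.34), and Scd3 (2.51-fold) and Mlxip (3.51-fold) were higher with fractional counts. Elovl4 had 286 reads in dsNat10 and 0 in dsGFP (at least 96.3-fold higher), with a mean so close to 5 CPM that it was not tested under DESeq2 size factors.

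**Figure D5:**
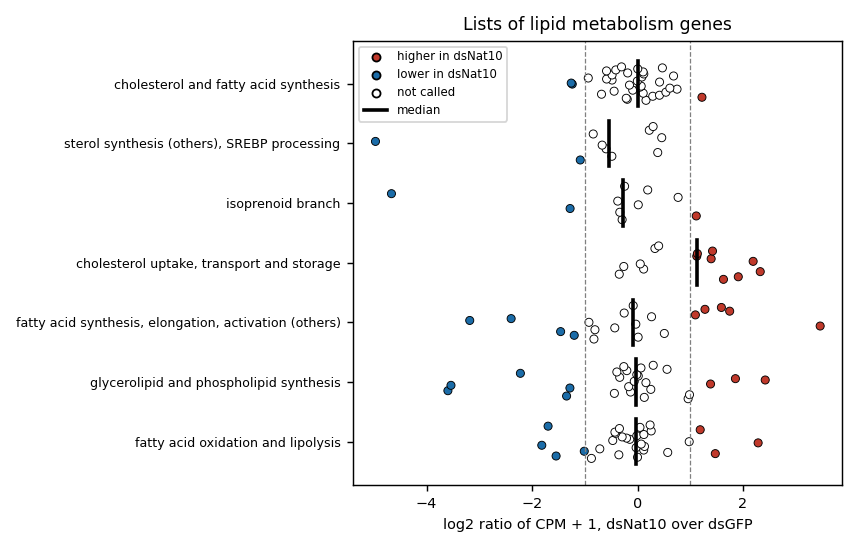
Log2 ratio of CPM plus 1, dsNat10 over dsGFP, for tested genes of the pathways and of 6 related lists. Red and blue points were called higher and lower in dsNat10, bars are medians, and the uptake, transport and storage list has its median at 1.13.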

How the data were processed

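Polyadenylated RNA from morulae was made into SMART-seq2 libraries, which amplify full-length cDNA by PCR, and 2 libraries were sequenced, per the labels. The submitters' processing notes list Trim Galore, HISAT, HTSeq and GRCm38, with no versions or annotation (not given in the sources used here). From these the authors deposited estimated counts per gene, without normalization, fractional for 23.2% of genes. The deposited TPM and FPKM were made by the authors and are scaled to transcript length and depth.

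Estimated counts were rounded to whole numbers and scaled with TMM (edgeR 4.0.16, R 4.3.3). Ratios are dsNat10 over dsGFP. Intervals are exact (Clopper-Pearson, 95%) and cover counting error only: PCR copies lack molecular identifiers and do not count molecules. The floor for a count of 0 is 3 reads per library, and folds given as "at least" use it in place of the wider 95% interval. With 1 library per group no p-value was computed. The implied length is the estimated count divided by FPKM and by the summed counts. Positions come from the RefSeq table of GRCm38.p6, which matched 12800 of 12836 genes. Strand is not marked by SMART-seq2, and a read from an antisense neighbour looks like one from the gene.

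All members are named, and from the related lists every called gene and the most abundant one, except for items that are not reported here. Erg28, Mbtps1, Mbtps2, Tmem97, Nr1h2, Mylip, Hacd2, Elovl2, Elovl3, Elovl7, Acsl1, Acsf3, Chka, Cds2 and Dgat1 were added after their values were seen. Members and lists were chosen with earlier results of these data known. The rule was run on simulated counts with planted 3-fold and 4-fold changes and counting error only. That run cannot show how the rule behaves with variation between embryos or in amplification. Alternatives were plain totals, DESeq2 1.42.0 size factors, other filters, other pseudocounts, TPM, FPKM, a 1.5-fold limit, and leaving out fractional counts.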

Additional observations from a re-analysis of the deposited data

How the results depend on the processing

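Hmgcs1 and Hsd17b7 stayed lower and Acsl3 stayed higher under plain totals, DESeq2 size factors, both other pseudocounts, TPM, FPKM, no filter, and a mean of 20 CPM or more. Leaving out genes with fractional counts removed Acsl3, so 0 members were higher. At a mean of 50 CPM or more 0 members were higher and 1 lower, and with a 1.5-fold limit 4 were higher and 6 lower. TPM and FPKM added Sc5d to the lower members, which then numbered 3, as did Tm7sf2 with no filter. The median of the members ranged from -0.05 to 0.06. Among the related genes, 13 were higher and 9 lower at 20 CPM or more, 2 higher and 3 lower at 50 CPM or more, and 29 lower with no filter. Sqle had a ratio below 1 with DESeq2 size factors, and Insig1 one above 1 with plain totals, TPM and FPKM. TPM shifted the log2 ratio of 14 of the 35 members by more than the counting interval extends from the CPM ratio. FPKM did so for 3, Sc5d, Lss and Elovl5. Tm7sf2, with 0 reads in dsNat10, has no such interval on a log scale and was counted as not moved. Over all tested genes the median log2 ratio was 0.01 by CPM, 0.06 by TPM and 0.03 by FPKM. The moves by TPM thus include a small shift of all genes. Other settings also changed calls of related genes. With plain totals 22 were higher and 16 lower, with TPM 22 and 15, and with a pseudocount of 5 18 and 13. Among the genes whose call changed were Acadl, not called with plain totals, TPM or FPKM, and Elovl4, not called with DESeq2 size factors. With 1 library per group no replicate could be left out, and counting intervals do not cover variation between embryos or in amplification. No paired analysis was possible because each group has 1 library.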

Other observations

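Further lists of lipid genes differed in both directions. Of 26 tested genes of glycerolipid and phospholipid synthesis, 3 were higher and 5 lower in dsNat10, with a median log2 ratio of -0.04. Across all tested genes 15.2% were higher and 15.3% lower. Dgat2, which makes triglyceride, had 818 reads in dsNat10, against 131 in dsGFP, and was 6.31-fold higher (95% counting interval 5.24 to 7.65), while its counterpart Dgat1 had 573 and 606 reads. In the choline branch of phosphatidylcholine synthesis, Pcyt1a, the rate-limiting enzyme, had 188 reads in dsNat10, against 991 in dsGFP, and was 5.22-fold lower (4.46 to 6.13). Cept1, a transferase of the last step, was 2.52-fold lower (2.26 to 2.80). Chpt1, the other transferase of that step, was 2.71-fold higher (2.43 to 3.04), with fractional counts. Chkb, a choline kinase, had 0 reads in dsNat10 and 306 in dsGFP. The more abundant choline kinase Chka had 2378 and 2703 reads (ratio 0.889, 0.841 to 0.940), with fractional counts, and was not called. Etnk1 was 4.04-fold higher (3.42 to 4.79) and Agpat3 2.82-fold lower (2.35 to 3.40), and Cds1 had 1 read in dsNat10 and 332 in dsGFP. The more abundant Cds2 had 7455 and 6325 reads, a ratio of 1.19 (1.15 to 1.23) that fell below 1 by TPM and FPKM. The most abundant gene of the list by CPM, Cdipt, had 21557 and 23863 reads.

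Of 29 tested genes of fatty acid oxidation and lipolysis, 3 were higher and 4 lower, with a median of -0.03. Cpt1a, which admits fatty acids to mitochondria, had 296 reads in dsNat10, against 1125 in dsGFP, and was 3.76-fold lower (3.31 to 4.29). Pnpla2, the lipase that opens triglyceride breakdown, was 3.34-fold lower (3.06 to 3.65), and the mitochondrial thiolase Acaa2 was 2.99-fold lower (2.75 to 3.24). Acadl was 2.03-fold lower (1.91 to 2.16), and fell short of the limit with plain totals. Decr1, Acad11 and Mgll were higher, with 294, 1914 and 449 reads in dsNat10 against 38, 678 and 183 in dsGFP. Acadm, the most abundant gene of the list by CPM, had 14037 and 13082 reads.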
